A study of Arabidopsis thaliana with 5 samples.

Results

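The wide DRIP peaks are the regions of DRIP replicate 1 that span 1000 bp or more and overlap a peak of DRIP replicate 2 by at least 1 bp. They number 1466 of the 47291 peaks of replicate 1 (3.10%) and cover 1883 kb of the nuclear genome. Every peak of 1000 bp or more in replicate 1 met the overlap, so none was lost to it, and the other 36146 shared peaks were narrower than 1000 bp. The members were chosen by their measured width in replicate 1 and their overlap with replicate 2, so these values, and replicate 1 folds from the same list, are given as description only.

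DRIP pulls down DNA with S9.6, an antibody that binds DNA:RNA hybrids. Both DRIP replicates came from nuclei of 12-day-old seedlings of the Columbia ecotype, labelled wild type, with no treatment or transgene named in the labels. The DNA was cut with DdeI, EcoRI, HindIII, MspI, RsaI and SspI before the pull-down, and adapters were joined to single-stranded DNA, so the strand of a fragment could be kept. The labels also list 2 samples treated with RNase H and 1 input, which were not analysed here. With 2 replicates of 1 condition there is no test over samples, and the labels do not say whether the replicates were separately grown, so differences between them may be technical.

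An R-loop forms when an RNA pairs with one strand of a DNA duplex and leaves the other strand single. R-loops arise where RNA is made and are removed by RNase H enzymes, helicases and topoisomerases. In plants they have been mapped over gene bodies, promoters, noncoding RNA genes and transposons.

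Fold values are those of the authors' peak caller, the pileup at a peak's summit over its local background, and they are used here only to place a peak within its own list. The depth behind them is unknown, because peak lists carry no read totals. The w and c lists hold peaks of opposite strands and are recorded under DRIP replicate 1. The sources used here do not say which of them carries the RNA or whether replicates were pooled for them, so they may share reads with replicate 1. All positions are TAIR10 coordinates counted from 1, and "below" means at the lower coordinate.

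Most wide peaks were only somewhat longer than the limit. Widths ran from 1000 to 5323 bp with a median of 1214 bp and quartiles of 1086 and 1408 bp. There were 826 peaks under 1250 bp, 390 from 1250 to 1499 bp, 221 from 1500 to 1999 bp and 29 of 2000 bp or more. Peaks at the limit are named as examples only, with ties taken by position. Just inside, at 1000 bp, lay peaks in AT1G23390 (fold 4.38 in replicate 1 and 3.87 in replicate 2), AT3G07320 (3.71 and 4.30) and AT3G49160 (4.36 and 4.11). Each of these carried peaks of 1 strand list only. Just outside, at 999 bp, lay peaks in AT1G73170 (6.73 and 5.20), in the pseudogene AT3G43460 (4.28 and 4.74) and in AT3G57770 (4.59 and 5.19).

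The wide peaks were spread over all 5 chromosomes. Chromosomes 1 to 5 held 354, 251, 303, 221 and 337 of them, which was 3.71% to 4.02% of the shared peaks of a chromosome. The median gap from one wide peak to the next nearest was 29501 bp, 256 (17.5%) had another within 10 kb and 24 had one within 1 kb. The smallest gap was 155 bp.

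Replicate 2 found the same stretches, though often in pieces or somewhat shorter. Its peaks covered a median of 92.7% of the bases of a wide peak (20.3% to 100%, quartiles 81.2% and 98.8%), close to the 92.4% of the narrower shared peaks. A replicate 2 peak of 1 kb or more overlapped 891 of the 1466 wide peaks (60.8%), against 4.08% of all shared peaks and 1.78% of the narrower ones. With the replicates exchanged, 1219 of the 39888 peaks of replicate 2 (3.06%) were wide and overlapped replicate 1, and 890 of them (73.0%) met a replicate 1 peak of 1 kb or more. So width above the limit was shared by most, not all, of the wide peaks in either direction.

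Many wide peaks were broken up in replicate 2. There 969 wide peaks corresponded to 1 replicate 2 peak, 448 to 2 and 49 to 3 or more. The share in more than 1 piece was 33.9%, against 3.34% of all shared peaks and 2.10% of the narrower ones. It rose with width and was not particular to wide peaks. In shared replicate 1 peaks it was 7.44% at 500 to 749 bp and 19.6% at 750 to 999 bp. At 1000 to 1249 bp it was 29.4%, and at 2000 bp or more 62.1%. The widest replicate 2 peak in a member ranged from 208 to 5332 bp with a median of 1076 bp. Across the 1466 peaks the Spearman correlation of replicate 1 width with this width was 0.43, against 0.75 over the 36146 narrower peaks. That of the folds in the replicates was 0.88, against 0.83. These are descriptions over peaks of the same pair of lists, and the range of widths among wide peaks is cut at the limit.

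**Figure D1:**
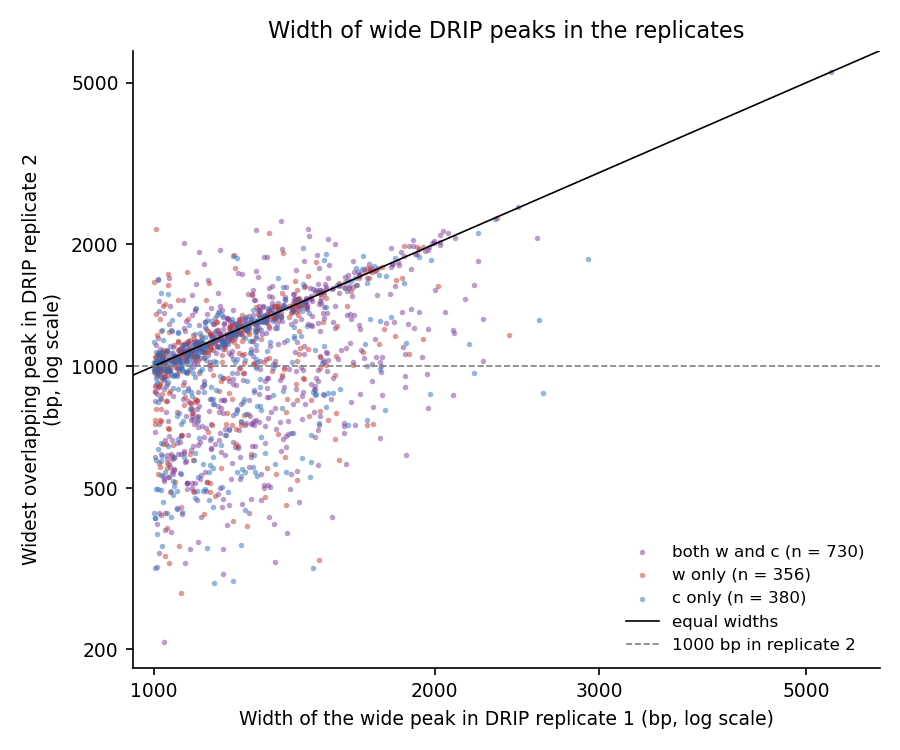
Width of each of the 1466 wide peaks in DRIP replicate 1 (horizontal axis, bp, log scale) against the widest overlapping peak of DRIP replicate 2 (vertical axis, bp, log scale), with 1 point a peak coloured by its strand lists. Points on the solid line have equal widths. The cloud splits into peaks near that line and peaks below the dashed line at 1000 bp, which are shorter or in pieces in replicate 2.

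Wide peaks stood high in the replicate 2 list. Their folds there ran from 1.31 to 10.0 with a median of 4.32, against a median of 3.02 for the narrower shared peaks. In replicate 1, whose widths chose them, folds ran from 1.30 to 9.49 with a median of 4.43, against 3.21. Of the 1466 wide peaks 1008 (68.8%) lay in the upper quartile of replicate 2 fold among all shared peaks. The replicate 2 fold is the highest of the overlapping peaks. More than 1 such peak was met by 33.9% of wide and 2.10% of narrower peaks, and what this added was not tested. In shared peaks of 750 to 999 bp the median replicate 2 fold was 4.02, and at 1000 to 1249 bp 4.22. Within the wide peaks the Spearman correlation of width and replicate 1 fold was only 0.1 (1466 peaks), against 0.53 over the narrower ones. The range of widths among wide peaks is cut at the limit, so these correlations are not on the same footing. The median replicate 1 fold was 4.31 at 1000 to 1249 bp, 4.55 at 1250 to 1499 bp, 4.52 at 1500 to 1999 bp and 4.84 at 2000 bp or more. A replicate 2 fold under 2.56, the lower quartile of all shared peaks, was found in 21 wide peaks. Of these 21, 12 overlapped no protein-coding gene, 11 lay in pericentromeric regions, the gene-poor stretches around the centromeres, and 12 carried both w and c.

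Carrying peaks of both strands was common in wide peaks. Both a w and a c peak overlapped 730 of the 1466 (49.8%), w alone 356 (24.3%), c alone 380 (25.9%), and none lacked both. Among all shared peaks 11.8% carried both, and among the narrower ones 10.3%. In the wide peaks of replicate 2, with the same strand lists, the share was 49.5% (603 of 1219), against 10.2% of its narrower peaks. These values use the same strand lists and mostly the same regions, so their closeness does not measure replicate error.

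A longer stretch has more room for a peak of each list, and the share rose steadily with width. It was 4.94% in shared replicate 1 peaks of 100 to 249 bp, 10.0% at 250 to 499 bp, 20.4% at 500 to 749 bp and 33.6% at 750 to 999 bp. Above the limit it was 43.7% at 1000 to 1249 bp, 54.6% at 1250 to 1499 bp, 62.0% at 1500 to 1999 bp and 65.5% in the 29 peaks of 2000 bp or more. So 1000 bp marks no step in this series. At the summit both lists were present in 20.5% of wide peaks and 5.87% of the narrower ones (18.8% and 5.36% with the replicates exchanged). The summit share also rose with width, from 4.25% at 100 to 249 bp through 15.0% at 750 to 999 bp and 16.2% at 1000 to 1249 bp to 37.9% at 2000 bp or more. The part of peak length in these shares was not tested. Asking for at least 100 bp of each list left 48.7% of wide peaks and 9.27% of the narrower ones.

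**Figure D2:**
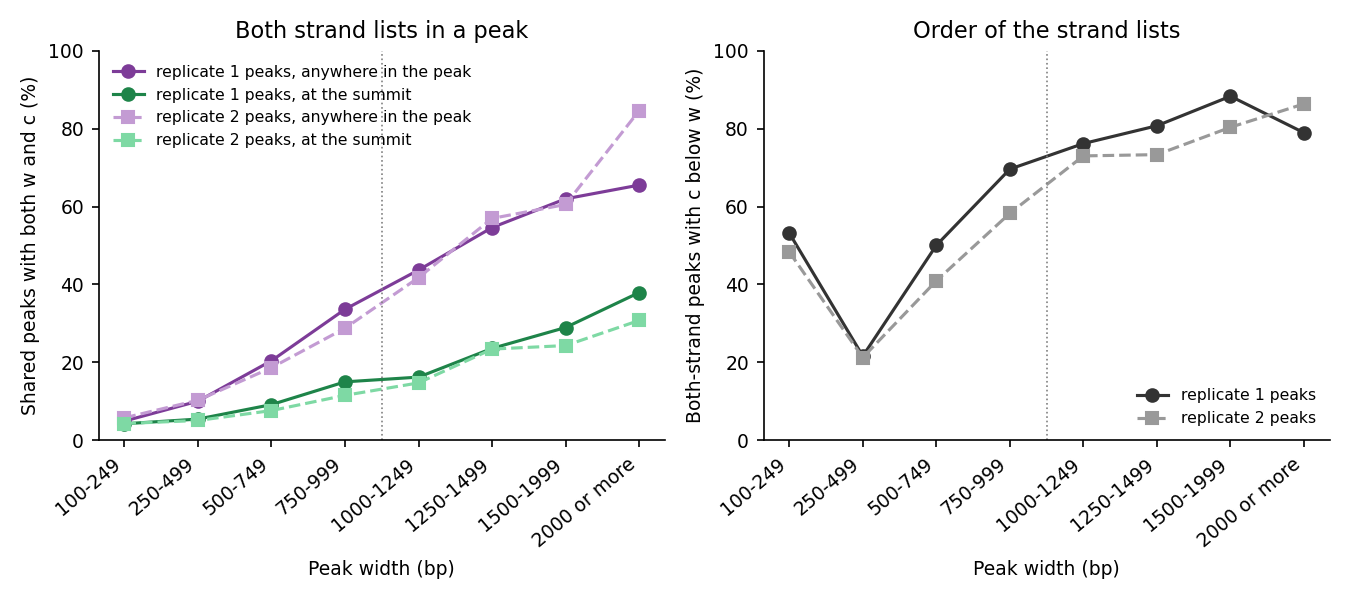
Left, percent of shared peaks carrying both w and c, anywhere in the peak or at its summit, by peak width (bp) in each replicate. Right, percent of both-strand peaks in which the c list lies below the w list. The dotted line marks 1000 bp: the left curves rise across it without a step, and the right curves fall to 21.6% and 21.3% at 250 to 499 bp before they rise above 70% in wide peaks.

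The gap in strand content was present at each level of fold. In the upper quartile of replicate 2 fold, both lists were found in 51.3% of 1008 wide peaks and 14.8% of 8680 narrower ones. In the next quartile down the shares were 47.1% of 342 and 10.3% of 8776. In the next they were 42.1% of 95 and 8.07% of 9329, and in the lowest 57.1% of 21 and 8.29% of 9361. Wide peaks thus had the higher share in every quartile, the lowest resting on 21 peaks.

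Inside a both-strand wide peak the strands were mostly side by side, with c below and w above. The centre of the c bases lay below that of the w bases in 583 of 730 (79.9%), and above it in 147. Over all both-strand shared peaks c was below w in 49.2%, and over the narrower ones in 43.2% (1607 of 3718). With the replicates exchanged the shares were 75.0% (452 of 603) and 37.4%. The order held on each chromosome, from 73.3% on chromosome 4 to 82.9% on chromosome 3, while the narrower peaks ranged from 39.5% to 46.1%. It was less even over the quartiles of replicate 2 fold. From the lowest up, c lay below w in 83.3% of 12, 57.5% of 40, 80.1% of 161 and 81.4% of 517 both-strand wide peaks. In the narrower ones the shares were 36.3%, 37.2%, 44.1% and 50.3%.

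The order changed with width and was not a property of wide peaks alone. In replicate 1, c lay below w in 53.2% of both-strand peaks of 100 to 249 bp, 21.6% at 250 to 499 bp, 50.1% at 500 to 749 bp and 69.6% at 750 to 999 bp. It then rose from 76.2% at 1000 to 1249 bp to 80.8% and 88.3% in the next width classes, and was 78.9% in the 19 both-strand peaks of 2000 bp or more. Replicate 2 followed the same course, with 48.3%, 21.3%, 41.0%, 58.3%, 73.0%, 73.3%, 80.4% and 86.4%. Both-strand peaks of 250 to 499 bp thus had mostly the opposite order, with w below c.

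The strands met over a short stretch. In the 730 both-strand wide peaks w peaks covered 54.7% of the bases, c peaks 56.0%, and 14.9% lay under both, with a median of 142 bp a peak. In 162 (22.2%) no base lay under both. The centres of the w and c bases were a median of 480 bp apart, against 132 bp in the narrower both-strand peaks, of whose bases 24.6% lay under both. The strand with fewer bases held a median of 32.0% of the w and c bases of a wide peak.

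Most both-strand wide peaks were therefore built from shorter strand peaks. One w and 1 c peak made up 415 of them, and 315 held 3 or more strand peaks. The widest w peak in a both-strand member had a median of 681 bp and the widest c peak 666 bp, and 397 of 730 (54.4%) held no strand peak of 1 kb or more. A w and a c peak that each reached 1 kb were found in 18. Single-strand wide peaks were different: 718 of 736 held 1 strand peak, of a median of 1240 bp, 701 (95.2%) held a strand peak of 1 kb or more, and 520 were covered by it from end to end. The lowest coverage among them was 64.5%.

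Folds of the strand peaks were close in both kinds of wide peak. The median highest fold was 5.60 for w in w-only wide peaks, 5.70 for c in c-only ones, and 5.76 for w and 5.91 for c in both-strand ones. In the narrower peaks the single-strand medians were 5.01 and 5.04, and the both-strand medians only 3.88 and 3.90. In both-strand wide peaks, then, the median highest fold of each strand was as high as in single-strand ones. In narrower peaks the both-strand medians were lower. The highest fold was drawn from more strand peaks in both-strand wide peaks. There 315 of 730 held 3 or more, against 299 of 3718 narrower both-strand peaks. What this added to the folds was not tested.

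Along the both-strand wide peaks, divided into 10 equal parts from the lower end, the lists crossed near the middle. The c list covered 72.6% of peaks in part 1, 76.4% in part 2, 62.9% in part 5 and 33.7% in part 8. The w list covered 38.6%, 35.6%, 50.7% and 75.8% at the same places, and 77.4% in part 9. In both-strand shared peaks of 500 to 999 bp (n = 1521) the lists also crossed near the middle, but lay closer together: w stayed between 51.9% and 64.7% and c between 48.3% and 63.4%.

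**Figure D3:**
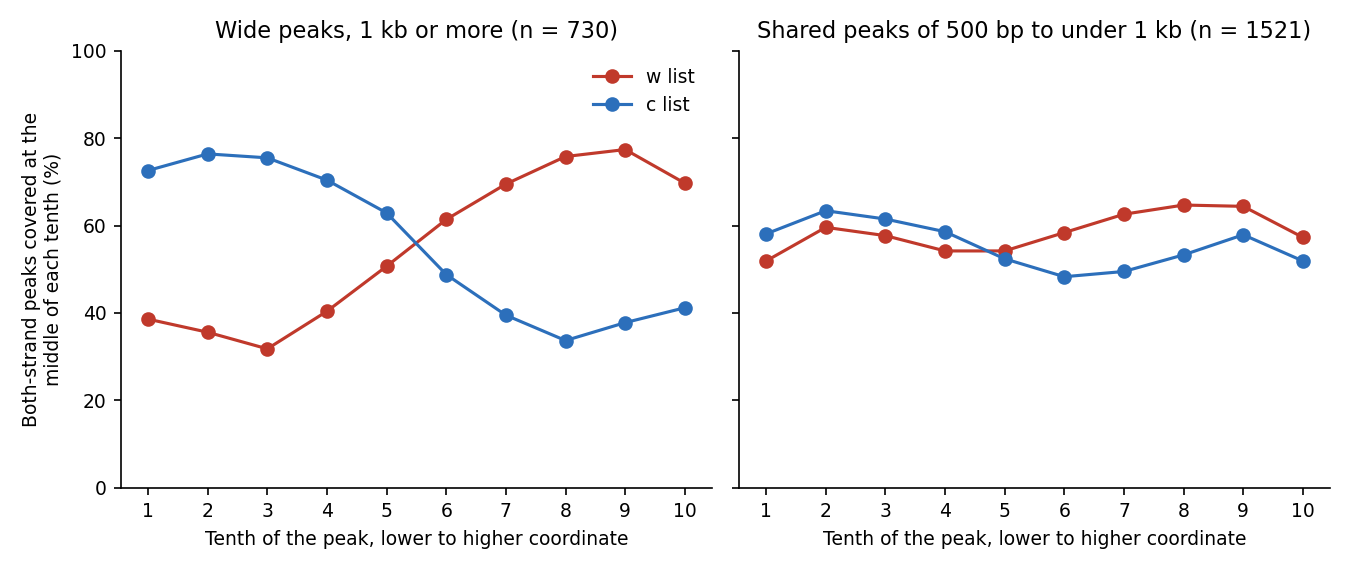
Percent of both-strand peaks covered by the w list (red) and the c list (blue) at the middle of each of 10 equal parts of the peak, from its lower to its higher coordinate, for the 730 wide peaks (left) and 1521 shared peaks of 500 to 999 bp (right). In wide peaks c is highest at 76.4% in part 2 and w at 77.4% in part 9. In the shorter peaks both lists stay between 48.3% and 64.7%.

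Peaks of each strand class were broken in pieces in replicate 2: 38.6% of both-strand, 26.1% of w-only and 32.1% of c-only wide peaks. Of the 254 both-strand wide peaks that were 2 peaks in replicate 2, the lower piece held mostly c and the upper mostly w bases in 139 (54.7%). The reverse held in 13, the same list led in both pieces in 100, and 2 were ties. Whether the strand lists share reads with replicate 2 is not given.

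Wide peaks lay mainly in protein-coding genes. Of the 1466, 991 (67.6%) overlapped 1 protein-coding gene, 180 (12.3%) overlapped 2 or more and 295 (20.1%) none. Among all shared peaks 3.58% reached 2 or more genes and 30.9% none, and among the narrower ones 3.23% and 31.4%. Counting only genes with at least 100 bp in the peak, 10.2% of wide and 1.98% of narrower peaks reached 2 or more. The summit lay in a protein-coding gene in 73.7% of wide and 64.9% of narrower peaks. Shared replicate 1 peaks just under the limit were close to those just above it. At 750 to 999 bp 8.78% reached 2 or more genes and 73.4% had the summit in a gene. At 1000 to 1249 bp the shares were 10.4% and 73.2%.

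By bases, protein-coding genes held 72.6% of wide peak length, against 66.1% in the narrower shared peaks. This share was not particular to wide peaks. It was 72.3% in shared replicate 1 peaks of 750 to 999 bp and 71.3% at 1000 to 1249 bp. Pseudogenes, among which the table counts many transposon genes, held 12.0% against 11.8%. The 1 kb flanks of genes held 11.2% against 15.9%, intergenic DNA farther out 2.85% against 4.90%, long noncoding RNA genes 0.918% against 1.08%, and small RNA genes 0.477% against 0.258%. The gene table gives no exons or untranslated regions, so genes were not divided further.

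The genes reached had a higher median length than all protein-coding genes, and the part of a gene that was covered varied widely. Wide peaks overlapped 1345 of 27432 protein-coding genes (4.90%), with a median length of 2505 bp against 2078 bp for all. From the shortest to the longest quartile of gene length the share was 2.47%, 4.57%, 5.99% and 6.59%. In the 991 peaks with 1 gene, whose median length was 2602 bp, the peak covered a median of 44.8% of the gene, against 9.99% for narrower peaks. It covered at least 50% of the gene in 400 (40.4%) and at least 90% in 45 (4.54%), and 581 (58.6%) lay wholly inside the gene. Among the narrower peaks with 1 gene 82.8% lay wholly inside.

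Where the centres of these 991 peaks fell is partly fixed by the width rule, since a long peak inside a gene must have its centre away from the gene's ends. The lower, middle and upper of 3 equal parts of the gene held 32.0%, 39.8% and 28.3% of the centres, against 36.2%, 29.0% and 34.7% for narrower peaks. The strand lists shifted this to either side. The median centre lay at 55.5% of the gene from its lower end for the 238 w-only peaks, 43.3% for the 246 c-only peaks and 48.3% for the 507 both-strand peaks. The narrower peaks lay farther out, at 62.0% for w only and 36.2% for c only.

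In genes under a both-strand wide peak the lists again took opposite sides. Divided into 10 parts from the lower end, these 507 genes were covered by c in 49.7% at part 2 and 15.0% at part 10. By w they were covered in 18.3% at part 1 and 46.4% at parts 8 and 9. Under w-only wide peaks w coverage rose from 33.2% in part 1 to 66.0% in part 8 and was 45.0% in part 10. Under c-only peaks c coverage was 42.7% in part 1, 67.5% in part 4 and 26.4% in part 10. Outside the wide peak such genes could carry the other list. Under w-only peaks c covered 14.7% of genes in part 1 and 0.840% in part 10. Under c-only peaks w covered 1.22% in part 1 and 13.4% in part 10. The transcribed strand of genes was not used here, so these sides cannot be read as the start or end of a gene.

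**Figure D4:**
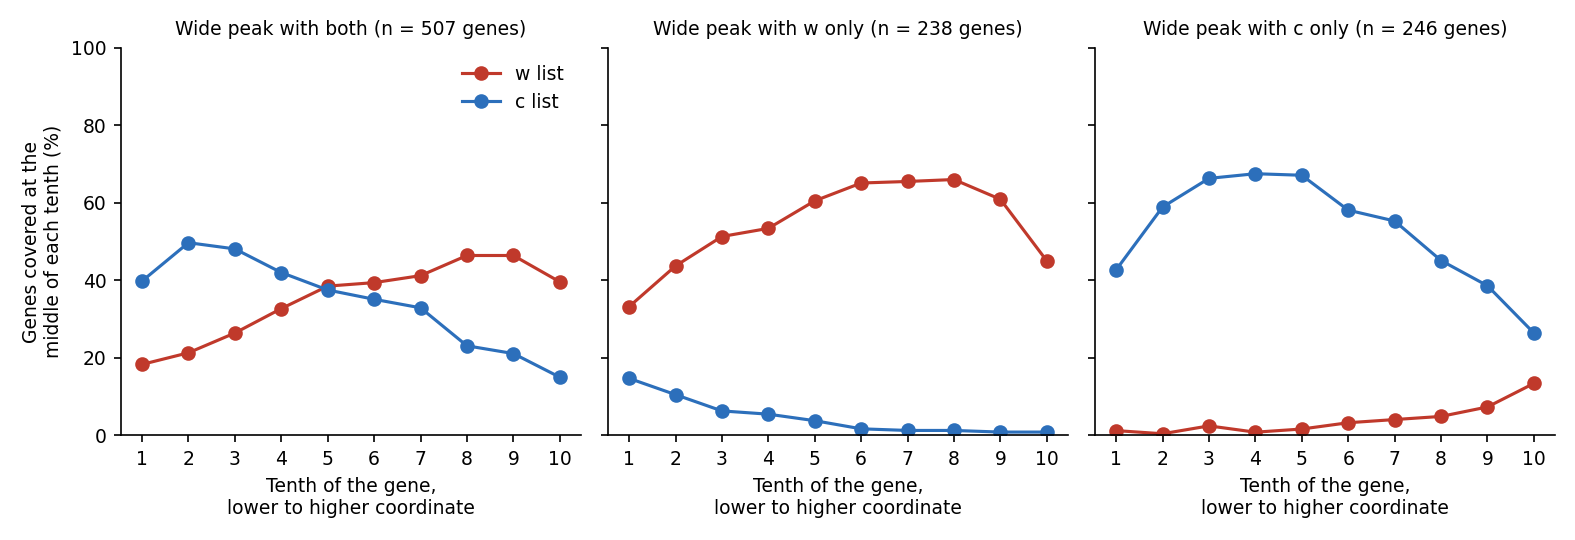
Percent of protein-coding genes covered by the w list (red) and the c list (blue) at the middle of each of 10 equal parts of the gene, from its lower to its higher coordinate, for genes with a wide peak carrying both lists (507 genes), w only (238) or c only (246). In the left panel c falls from 49.7% in part 2 to 15.0% in part 10 while w rises from 18.3% to 46.4%.

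In most both-strand peaks c lay below w whether they held 1 gene, more or none, with the highest share at 1 gene. The differences between these shares were not tested. With c below w stood 422 of 507 both-strand peaks with 1 gene (83.2%), 77 of 107 with 2 or more genes (72.0%) and 84 of 116 with none (72.4%). Most both-strand wide peaks, 507 of 730, thus overlapped 1 gene only. Both lists were present in 51.2% of wide peaks with 1 gene, 59.4% of those with 2 or more and 39.3% of those with none.

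Peaks that joined genes included 5 that reached 3 protein-coding genes, and all 5 carried both lists. On chromosome 3, chr3:21124151-21125786 (1636 bp, fold 5.88 in replicate 1 and 5.58 in replicate 2) overlapped AT3G57070, AT3G57072 and NRPE5, which encodes a subunit of the plant-specific RNA polymerase V. It held 887 bp of w and 1221 bp of c. At chr2:14173348-14174814 (3.93 and 3.67) the peak overlapped AT2G33435, the plastid ribosomal protein gene PRPL28 and RIC1, with 854 bp of w and 813 bp of c. The other 3 lay over AT1G45160, AT1G45163 and AT1G45165, over AT2G21340, AT2G21350 and XK-1, and over AT3G12650, emb2742 and FLA14. Conversely, 11 genes held 2 wide peaks each. Among them were JMJ18, which encodes a histone demethylase (1214 and 1156 bp), and FLD, a flowering time gene (1348 and 1026 bp). In the receptor-like kinase gene RKL1 the peaks were 1355 and 1033 bp, and in Toc90, which encodes a chloroplast import receptor, 1205 and 1000 bp.

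The widest peaks differed in what they overlapped, in fold and in strand. The widest, chr4:3055931-3061253 (5323 bp), had a fold of only 2.13 in each replicate and a replicate 2 peak of 5332 bp. It overlapped the noncoding RNA genes AT4G05175, AT4G05185 and AT4G05195 and the pseudogene AT4G06477, and no protein-coding gene. It carried 4 w peaks over 4704 bp and 4 c peaks over 4557 bp, so both strands were present over most of it. The next were chr3:11377646-11380566 (2921 bp, folds 3.53 and 3.33), with no gene, and chr4:5023600-5026212 (2613 bp, 3.11 and 3.09), over the pseudogene AT4G08105. Both carried c alone, and each was 3 peaks in replicate 2.

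Of the 12 widest, 9 overlapped protein-coding genes. The peak in AT2G22795 at chr2:9697445-9700029 (2585 bp, folds 4.58 and 4.23) covered 88.8% of the gene, with c alone, and was 3 peaks in replicate 2. EMB2083, a gene named for embryo-defective mutants, and its neighbour AT3G16300 shared chr3:5523068-5525641 (2574 bp, 5.27 and 5.86), with 1824 bp of c (fold 6.66) below 1048 bp of w (6.48). AT4G32190 held chr4:15544802-15547258 (2457 bp, 5.64 and 5.58), with 826 bp of c (6.96) below 2101 bp of w (7.49). In these last peaks the strands stood at nearly equal fold. The centre of the c bases lay 1047 and 994 bp below that of the w bases, though some bases lay under both lists.

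DMS3, which encodes a factor of RNA-directed DNA methylation, and emb1796, whose extents overlap in the gene table, lay under chr3:18255811-18258063 (2253 bp, 5.35 and 5.10) with 1929 bp of w and 526 bp of c. LRX3, a leucine-rich repeat extensin gene of the cell wall, held chr4:7759197-7761448 (2252 bp, 4.07 and 3.68). There 349 bp of w lay below 1847 bp of c, the reverse of the usual order. At chr1:17812072-17814298 (2227 bp, 5.26 and 5.85) c covered the whole peak between NPSN12, a SNARE gene, and CIPK17, a calcium-signalling kinase gene, and over the pseudogene AT1G48250, with 128 bp of w. Single-strand members were AT4G20160 (2400 bp, w alone), AT5G56890 (2332 bp, w alone) and AT2G42560 (2322 bp, c alone).

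**Figure D5:**
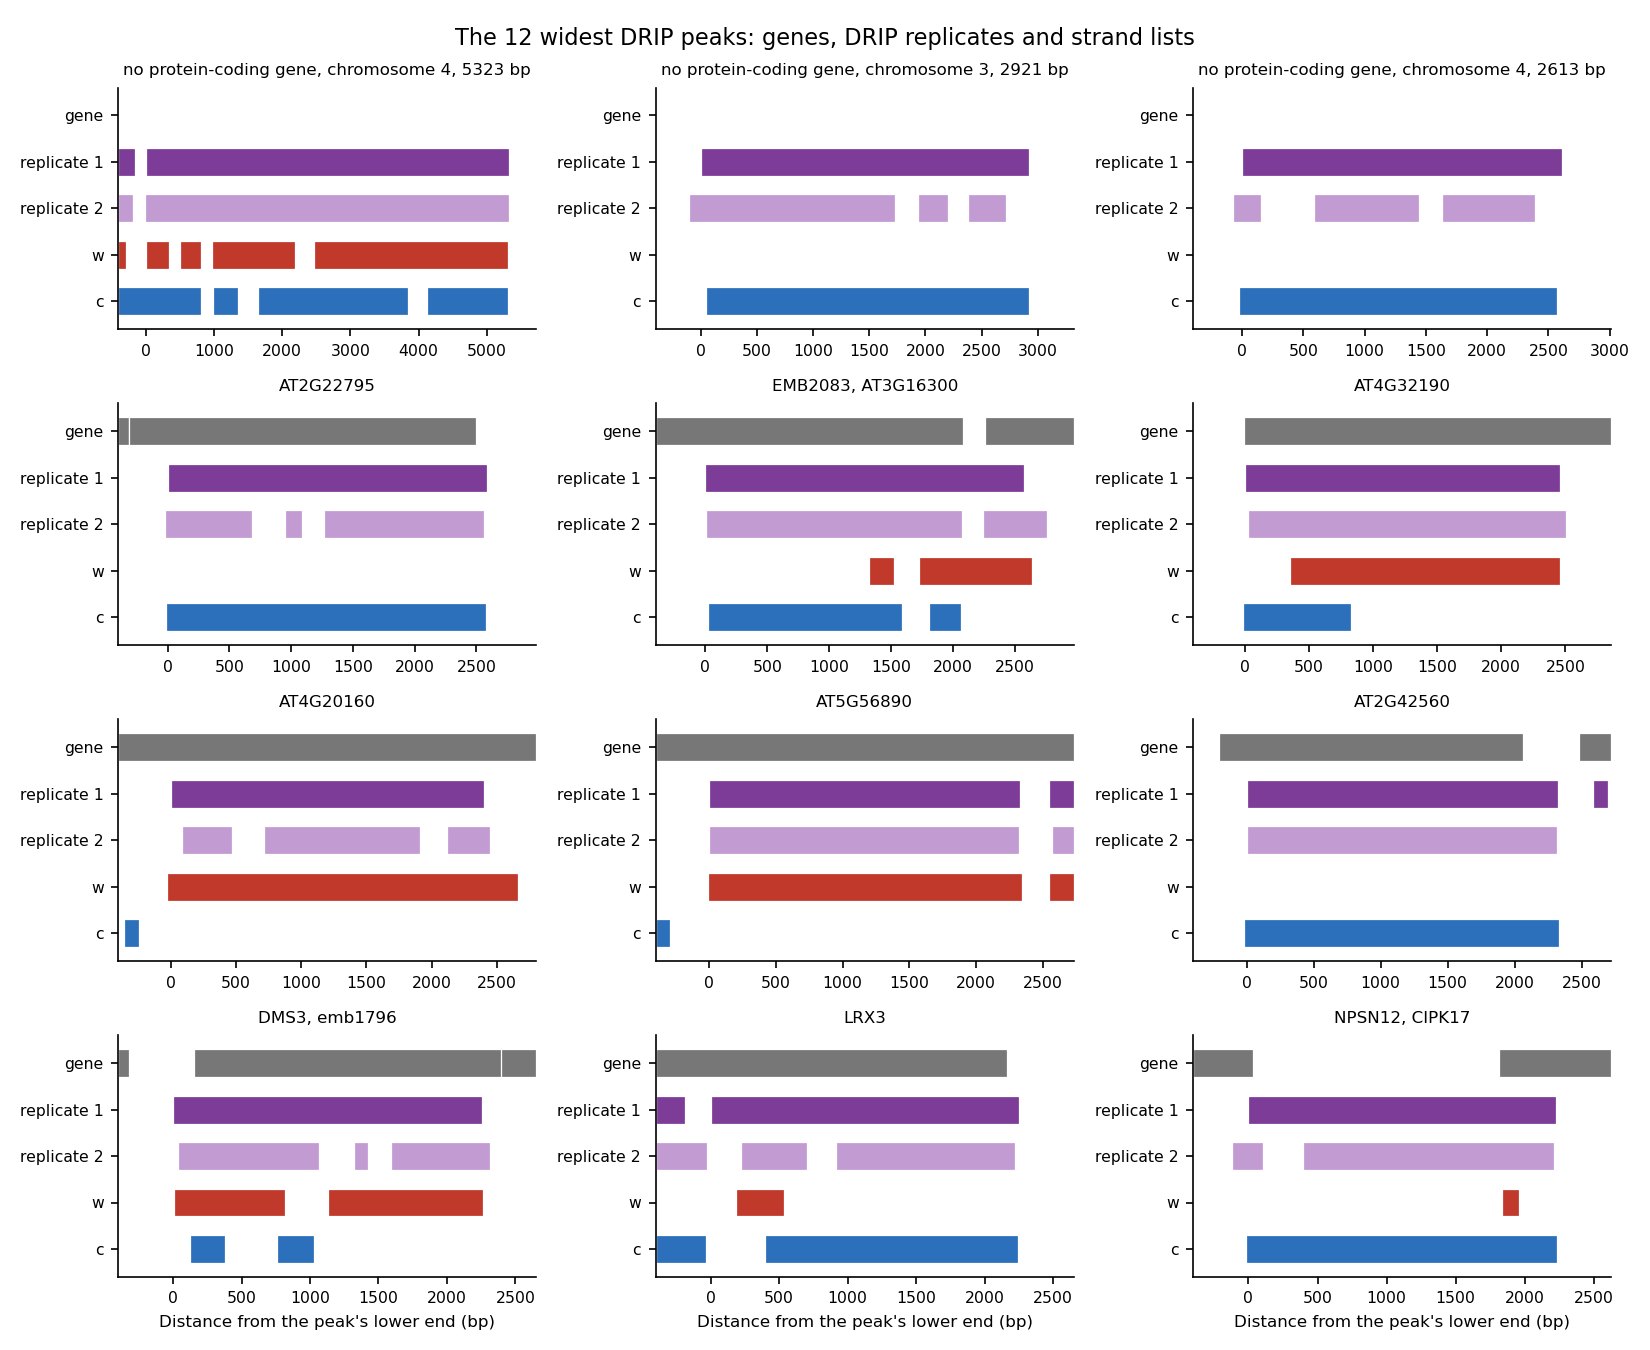
Maps of the 12 widest peaks, each on its own scale in bp from the peak's lower end, with protein-coding genes (grey), peaks of DRIP replicates 1 and 2 (purple) and peaks of the w (red) and c (blue) lists. Peaks of the single-strand panels carry 1 long strand peak. In EMB2083 and AT4G32190 c peaks lie mostly toward the lower and w peaks toward the higher side, with some overlap. In LRX3 the order is reversed.

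All of the 10 wide peaks with the highest smaller fold of the replicates carried both lists. Over all wide peaks the share was 49.8%, and over those in the upper quartile of replicate 2 fold 51.3%. The 10 were picked partly by replicate 1 fold, and the strand lists may share reads with replicate 1. They were led by chr1:14029505-14030556 in AT1G36990 (1052 bp, 9.49 and 9.60) and chr2:7190541-7191685 in AT2G16586 (1145 bp, 8.68 and 10.0). The lead of these 10 in strand content was not tested. ROS3, which encodes an RNA-binding protein needed for active DNA demethylation, held a 1429 bp peak (8.37 and 8.05) that was 3 peaks in replicate 2. CSR1, the acetolactate synthase gene of branched-chain amino acid synthesis and a herbicide target, held chr3:18001625-18003718 (2094 bp, 8.60 and 7.96). That peak covered 84.9% of the gene, with 1602 bp of w (8.03) and 1058 bp of c (8.29). The rest were AT4G36230 (8.53 and 8.87), AT5G14460 with AT5G14470 (8.36 and 8.44), the lipid-binding patellin gene PATL2 (8.33 and 7.68), AT5G48560 (7.42 and 7.41), AT2G15880 (7.66 and 7.39) and the transcribed pseudogene AT4G07747 (7.32 and 8.82). AT4G36230 alone among these had w below c.

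Some wide peaks carried 1 strand list alone over a large part of a gene. The other list was absent from the peak but could still have peaks elsewhere in the gene. With w alone, SIP3, which encodes a protein kinase that binds the calcium sensor SOS3, held 1944 bp (83.1% of the gene, folds 5.66 and 5.85, w fold 7.60). ABCG8, an ABC transporter gene, held 1877 bp (88.3%, 4.42 and 4.06, w fold 5.86). AT5G52280 and AT3G07540 held 1916 and 1853 bp. With c alone, AT4G11300 was covered to 100% by a 2206 bp peak (5.78 and 5.85, c fold 6.35) and AT3G49601 to 96.4% by a 2227 bp peak (4.26 and 4.55, c fold 5.25). AT5G56040 and AT3G24080 held 1982 and 1925 bp.

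At the other extreme stood peaks with nearly equal and large amounts of both lists. Apart from the 5323 bp peak these were chr5:11184635-11186659 (2025 bp, 2.62 and 2.68) and chr5:11309164-11311065 (1902 bp, 2.61 and 2.60), with no annotated gene, and chr4:3054417-3055768 (1352 bp, 2.18 and 2.18), next to the 5323 bp peak. A further one, chr2:2194-4098 (1905 bp, 1.79 and 1.82), overlapped AT2G01008 and the ribosomal RNA gene AT2G01010. All 5 had low folds in both replicates. Ribosomal RNA genes are repeated, and how reads of near-identical copies were placed is not given in the sources used here, so that peak is uncertain. The sixth differed: chr5:320690-322890 in AT5G01830, listed as SAUR21 in the gene table, had folds of 5.13 and 4.36, with 1433 bp of c (6.54) below 1296 bp of w (8.64).

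Pericentromeric regions held 319 wide peaks (21.8%), against 24.4% of all shared peaks and 24.5% of the narrower ones. In them 219 of 319 (68.7%) overlapped no protein-coding gene and 40.3% of the bases lay in pseudogenes, whereas outside 6.63% of 1147 overlapped no gene and 4.33% of the bases lay in pseudogenes. Strand content was nearly the same in both settings: both lists were present in 49.5% of pericentromeric and 49.9% of other wide peaks. The order c below w held in 114 of 158 (72.2%) and in 469 of 572 (82.0%). Median replicate 2 fold was 3.88 in pericentromeric and 4.42 in other wide peaks.

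Among noncoding genes, those of small nucleolar RNAs were met most often. These RNAs guide chemical modification of ribosomal RNA, and in plants many lie in clusters transcribed together. Wide peaks overlapped 62 of 287 snoRNA genes (21.6%), and any shared replicate 1 peak overlapped 224 (78.0%). The 62 lay in only 23 wide peaks, 13 of which held 2 or more and 52 in all, so the genes are not independent. Of the 23 peaks 18 met a replicate 2 peak of 1 kb or more, 14 carried both lists, 6 w alone and 3 c alone, and 7 overlapped no protein-coding gene.

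A cluster of 6 snoRNA genes from AT2G09680 to AT2G09705 lay under chr2:18973204-18974280 (1077 bp, folds 4.45 and 4.87), with w alone (7.59). Another cluster of 6 lay under chr3:17444857-17446074 (1218 bp, 5.77 and 6.13), with 1128 bp of w (7.08) and 178 bp of c (5.78). Both lay outside protein-coding genes. The other noncoding classes were met less: 8 of 82 snRNA genes (9.76%), 18 of 625 tRNA genes (2.88%), 9 of 326 miRNA genes (2.76%), 108 of 4288 long and other noncoding RNA genes (2.52%) and 257 of 4843 pseudogenes (5.31%). The shares of small RNA and longer genes are not on the same footing, since lengths differ.

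Gene families were counted by gene symbol against the 4.90% of protein-coding genes that a wide peak overlapped. Shares are descriptions, families differ in gene length, and several counts rest on a few genes. Of the 27 lists heat shock genes had the highest share, with 8 of 40 by symbol (20.0%, median gene length 2388 bp) and 8 of 52 with synonyms counted. Hsp70b, an HSP70 chaperone gene, held a 1692 bp peak (folds 4.87 and 4.94) with c alone, and HSP81-2, an HSP90 gene, a 1552 bp peak (4.23 and 3.32) with 1550 bp of w and 150 bp of c. HSPRO2, counted among the 8 by its symbol, is named after a nematode resistance gene of sugar beet and is not a heat shock protein gene. It held a 1633 bp peak (4.87 and 4.98) over 88.4% of its length.

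Cell wall arabinogalactan and fasciclin-like genes followed with 7 of 49 (14.3%), though their median length was 1031 bp. AGP9 was covered over 88.3% by a 1570 bp peak (4.93 and 5.43) with c alone, and AGP4 over 93.8% by a 1420 bp peak (4.84 and 5.01) with w alone. EMB genes, named for embryo-defective mutants, had 21 of 160 by symbol (13.1%, median length 2989 bp) and 28 of 256 with synonyms counted. Besides EMB2083 and emb1796 the widest peak was that of EMB2770 (1858 bp, 4.00 and 3.66). Calcium-dependent and CBL-interacting kinase genes had 6 of 50 (12.0%) by symbol and 8 of 60 with synonyms counted. CPK1 held 1421 bp (4.95 and 4.55), with 855 bp of w and 655 bp of c, and CIPK4 held 1413 bp (5.48 and 5.03).

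Homeobox transcription factor genes had 7 of 60 (11.7%). KNAT4 held a 1922 bp peak (5.10 and 4.21) and STM, which maintains the shoot meristem, a 1329 bp peak (3.67 and 3.38) that was 3 peaks in replicate 2. HB23 was covered from end to end by a 1648 bp peak (5.42 and 4.94) with c alone. Photosystem antenna and Rubisco genes had 2 of 20 (10.0%), LHCA2 (1226 bp, 4.65 and 4.80) and LHCA4 (1175 bp, 4.47 and 4.40), both of photosystem I and both with w and c. In LHCA4 559 bp of c (6.46) lay below 624 bp of w (8.36).

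Auxin response factor genes had 2 of 22 (9.09%), ARF10 (1469 bp, 4.15 and 4.30) and ARF19 (1208 bp, 4.74 and 4.11). Genes of the Aux/IAA repressors had 1 of 24 (4.17%), IAA12 (1068 bp, 4.25 and 4.42). Receptor-like protein and cysteine-rich receptor kinase genes had 8 of 92 (8.70%), among them RLP29 (1507 bp, w alone) and CRK23 (1475 bp, c alone). UDP-glycosyltransferase genes had 4 of 58 (6.90%), and UGT88A1 held 1487 bp (6.52 and 6.30).

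Several large families lay near or under the share of all genes. WRKY genes had 3 of 67 (4.48%), of which WRKY11 had the highest replicate 2 fold (1427 bp, 6.38 and 7.31, w alone at 11.3). ABC transporter genes had 4 of 124 (3.23%) despite a median length of 4609 bp. Cytochrome P450 genes had 4 of 219 (1.83%), NAC genes 1 of 81 (1.23%, NAC103) and MYB genes 1 of 123 (0.813%, MYB70). ERF, DREB and CBF genes had 1 of 32 (3.12%) by symbol and 3 of 40 with synonyms counted, so their place relative to all genes depends on the naming. The 1 by symbol was ERF6, with 644 bp of c (9.78) and 517 bp of w (8.69) in a 1115 bp peak. The 1 gene met among 16 listed as SAUR (6.25%) was AT5G01830, whose 2865 bp stand against a list median of 738 bp, so its place in that family is doubtful and without it the count is 0. Single genes were also met among actin (1 of 9, 11.1%) and histone genes (1 of 18, 5.56%). The histone gene was HIS1-3, a linker histone gene covered over 91.3%. The actin gene, ACT8, had 130 bp in a peak of 1109 bp, of which 929 bp lay in AT1G49245.

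No wide peak overlapped a gene of 8 lists: ribosomal protein (40 genes), XTH and expansin (59), calmodulin and calmodulin-like (17), bHLH and PIF (16), named immune receptor (16), tubulin (15), ubiquitin (13) and JAZ genes (10). The ribosomal protein list held only genes whose symbol starts with RPL or RPS, so PRPL28, which a wide peak overlapped, was not in it. Narrower shared peaks were present in genes of all 8 lists. Any shared replicate 1 peak overlapped 60.6% of all protein-coding genes. The share was 65.0% for the listed ribosomal protein genes, 47.5% for XTH and expansin genes, 93.8% for immune receptor genes and 80.0% for tubulin genes. The shared replicate 1 peaks in these genes were therefore all shorter than 1000 bp.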

How the data were processed

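The deposited files are 4 narrowPeak lists, 1 for each DRIP replicate and 1 for each strand (w and c, both recorded under replicate 1). Per the submitters' processing notes, CASAVA, BWA 0.7.12, MACS2 and the TAIR10 build were used. Which control and parameters were used, and whether replicates were pooled, is not given in the sources used here. The deposited fold is a linear ratio, the deposited -log10 p-value and q-value come from the authors' MACS2 run, and the deposited score column was not used. The smallest -log10 q-value in the DRIP lists was 1.30. Depth is unknown, so no interval is given.

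Peaks were compared with each other and by position with RefSeq genes (27432 protein-coding on nuclear chromosomes) of TAIR10.1, which is a newer release of the TAIR10 assembly. A member's replicate 2, w or c fold is the highest of the overlapping peaks. A base in several classes counted for protein-coding genes first, then for small RNA genes, pseudogenes, long noncoding RNA genes, flanks of 1 kb and the rest. For pericentromeric regions each chromosome was divided in steps of 500 kb, and 2.5 Mb were taken to each side of the centre of the step poorest in protein-coding genes. Calculations used Python 3.11.15, numpy 2.4.6 and pandas 2.3.3. On 1000 simulated peaks all 6 planted quantities were recovered.

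The members, the 27 gene lists and the comparisons were chosen with earlier results of these data known. Genes were put in lists by symbol alone, since synonyms brought in unrelated genes, a choice made after values were seen. Peaks named are the 12 widest, the 10 with the highest smaller fold, the 6 single-gene peaks with most w or most c bases alone, the 6 with most of both, the 3 widest without a protein-coding gene, the 3 on either side of the limit, and up to 3 per gene list. Peaks with 3 genes, genes with 2 wide peaks and snoRNA clusters were named after their values were seen. The order of c and w and the summit were examined after the data were seen. Alternatives were another width minimum, reciprocal overlap, joined peaks, a stricter q-value, pericentromeric regions left out, each replicate left out and the replicates exchanged. The planned comparison of strand lists with the transcribed strand of genes was not run, because the gene table used here gives no strand. Peaks are not replicates, so no test was made over them.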

Additional observations from a re-analysis of the deposited data

How the results depend on the processing

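Joining peaks over gaps of 100 bp or less changed no value, the count of 1466 wide peaks included. It may have had no peaks to join, so it is not a check of these results. At a minimum width of 1500 bp 250 peaks remained, with c below w in 87.2%, both lists in 62.4%, a replicate 2 peak of 1 kb or more in 79.6%, 2 or more genes in 17.6%, 17.6% pericentromeric, 74.0% of bases in protein-coding genes, a median replicate 2 fold of 4.50 and a median replicate 2 coverage of 90.1%. With a reciprocal overlap of 50% (1258 peaks) these were 70.3% for the replicate 2 peak of 1 kb or more, 12.7% for 2 or more genes, 21.6% pericentromeric, 73.0% of bases and 95.7% coverage. At a -log10 q-value of 5 or more in each list (1459 peaks) both lists were present in 45.2%, 72.7% of bases lay in protein-coding genes and 21.7% of peaks were pericentromeric. Without pericentromeric regions (1147 peaks) 85.6% of bases lay in protein-coding genes and 14.3% of peaks reached 2 or more genes. With the replicates exchanged the median fold was 4.55, coverage 95.9%, both lists 49.5%, c below w 75.0%, a peak of 1 kb or more in the other replicate 73.0%, 2 or more genes 12.1%, pericentromeric 21.7% and protein-coding bases 72.6%. Asking for 100 bp gave 48.7% with both lists and 10.2% with 2 or more genes, and the summit alone gave 20.5% with both lists. The cause of these shifts was not tested, apart from the fewer peaks or bases each rule admits. Leaving out 1 replicate gave 1219 to 1466 wide peaks, 72.6% of bases in protein-coding genes, 12.1% to 12.3% with 2 or more genes and 21.7% to 21.8% pericentromeric. Without replicate 2 both lists were present in 49.8% and c lay below w in 79.9%. Every wide peak of replicate 1 met the overlap, so leaving out replicate 2 returned the same peaks and is not a check. Leaving out replicate 1 gave the same values as exchanging the replicates and adds nothing to them. Without replicate 1 no strand value was computed, since the strand lists are recorded under it. No paired analysis was possible because only the DRIP samples have peak lists analysed here, and they form 1 group. The strand comparison with genes was not run. The order of c and w and the summit were alternatives chosen after seeing the data. Depth is unknown. Peak ends depend on the caller's settings, which are not given.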
